A study of Mus musculus with 16 samples.

Results

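The cytosolic ribosomal protein genes were followed across drug-resistant derivatives and parental cultures of T-ALL (T-cell acute lymphoblastic leukaemia) lines from mice. Members were the protein-coding rows whose symbol starts with Rpl or Rps and a digit, together with Rpsa, Rplp0, Rplp1 and Rplp2, without the Rps6k kinases and without names that mark a pseudogene. This rule, which uses no expression value, took 84 of the 13474 genes in the table. Of these, 48 are named for the large subunit and 33 for the small subunit. The other 3 carry the name pattern but are not subunits of the standard ribosome by name: Rpl7l1 is a paralogue of Rpl7, Rps19bp1 is named for binding Rps19, and Rps23rg1 is a retrogene of Rps23. Of the 84 genes, 83 reached at least 1 FPKM in at least 2 libraries and were tested; Rps23rg1 did not.

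The study profiled 16 cultures of 5 T-ALL lines, each as 1 library made with a stranded mRNA kit. The 11 resistant derivatives were 3 grown resistant to cytarabine (lines 2883, 2869 and 7298), 3 to vincristine (2883, 2696 and 2869), 2 to etoposide (2883 and 2696), 2 to prednisone (2883 and 2641) and 1 to methotrexate (2883). Each was set beside the PBS-treated parental culture of its line, 5 in all. Lines 2883, 2696, 2641 and 2869 carry the genotype Mcm2cre/cre, which the series describes as hypomorphic for the replication helicase subunit Mcm2, and line 7298 is SCL/LMO1 transgenic. All lines are thymic T-ALL lines grown in the same serum-supplemented medium, and all libraries have the same batch label. Age, sex, drug concentrations and the way resistance was raised are not given in the labels. Because each derivative is a single culture, p-values measure the spread between these cultures, and 5 derivatives share the parental library of line 2883.

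Ribosomal proteins are made in roughly matched amounts and assembled with ribosomal RNA in the nucleolus. Their mRNAs are among the most abundant in growing cells, and most begin with a 5′ terminal oligopyrimidine (TOP) tract, a C followed by a run of C and T, through which mTORC1 and LARP1 set their translation and stability. Some members also act outside the ribosome: Rpl5 and Rpl11, which carry the 5S ribosomal RNA, bind Mdm2 and restrain its action on p53, and Rpl22 is a recurrent target of deletion in human T-ALL and controls the level of its paralogue Rpl22l1 in mice.

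The start of 7 members is shown because their values recur below: Rpl27a, Rpl36a and Rps7 were among the members with the smallest p-values, Rps27 had the smallest p in the cytarabine comparison, Rps12 was the member that most often went the other way, and Rpl22 and Rpl22l1 are the paralogous pair. Each line gives 30 bases before and 20 bases from the annotated start, 5′ to 3′, taken from RefSeq on GRCm38.p6. Capitals mark the longest run of at least 5 C or T letters that opens with C and begins within 10 bases of the start.
Rps27, chr3:90213629-90213678, minus strand: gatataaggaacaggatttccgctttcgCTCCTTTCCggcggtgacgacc
Rpl27a, chr7:109519165-109519214, plus strand: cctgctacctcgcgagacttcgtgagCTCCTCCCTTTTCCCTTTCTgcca
Rpl36a, chrX:134585624-134585673, plus strand: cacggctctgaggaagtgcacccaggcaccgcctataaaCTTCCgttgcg
Rps7, chr12:28635934-28635983, minus strand: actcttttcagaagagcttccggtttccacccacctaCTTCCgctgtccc
Rps12, chr10:23787190-23787239, minus strand: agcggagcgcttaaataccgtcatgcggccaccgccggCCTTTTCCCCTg
Rpl22, chr4:152325696-152325745, plus strand: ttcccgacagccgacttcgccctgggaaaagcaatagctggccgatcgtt
Rpl22l1, chr3:28805478-28805527, plus strand: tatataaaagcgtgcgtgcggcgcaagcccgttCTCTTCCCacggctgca
The run was searched on the gene's own strand only. Read at the RefSeq start nearest the gene start, it lay in the window of 34 of the 64 members with a RefSeq promoter entry (53.1%). Counted at any RefSeq start of a gene, it was found for 37 of these 64 members. By that second rule it was found for 8804 of all 27025 genes with an entry (32.6%). The window of Rpl22 at this annotated start holds none. Members with the run had a median difference of -0.29 on the log2 scale between resistant and parental cultures (33 tested), and those without it had -0.25 (30 tested), with overlapping quartiles (-0.36 to -0.22 with the run, -0.33 to -0.14 without it).

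Depths were recovered from the steps between low values, at 14064000 to 18953000 reads in the resistant derivatives and 12144000 to 13497000 in the parental cultures. Depth and resistance therefore cannot be told apart. At these depths, 70.8% to 75.8% of the low values of a library lay within 0.05 of a whole read, so the depths are estimates. All 16 T-cell and thymocyte markers had a row, among them the CD3 chain genes Cd3d, Cd3e and Cd3g. Their summed level was 300 to 591 FPKM in resistant and 277 to 602 FPKM in parental libraries. A row does not mean a high level: over the 16 libraries Cd4 ran from 0.00024 to 3.97 FPKM and Cd5 from 0.0035 to 1.83 FPKM. Rag1 alone gave 311 FPKM of the sum in the parental culture of 2883. Of the markers of other cell types, 4 of 22 had a row; the single B-cell gene, Cd79b, reached at most 3.86 FPKM in resistant and 0.738 FPKM in parental libraries, the sum of Itgam and Cd68 for myeloid cells reached 2.50 and 1.22 FPKM, and the fibroblast gene Pdgfrb reached 10.8 and 7.53 FPKM. Their part in the results was not tested.

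The level of a single ribosomal protein gene has a particular limit in this genome, which holds many processed copies of these genes. In GENCODE vM21, 79 of the 84 members had at least 1 other gene that was at least 95% identical over at least 70% of the coding sequence, and 75 members had such a copy among the rows of the table. These 169 rows held more reads than the member itself for 46 members, for example 97.7% of the reads of member and copies together for Rpl5 and 96.9% for Rpl10. Reads of a member and its copies are therefore uncertain in their split, and results are also given with the copies added where that changes them. Rpl22, Rpl7l1, Rps27l, Rpl8 and Rps19bp1 were among the members with no near-identical row or member in the table. Among all members, counting each member's own row only, the highest mean level per kilobase of transcript was that of the stalk protein Rplp1 at 1573 CPM per kilobase. CPM is reads scaled to the library total. Rplp0 followed at 1562 and Rpl4 at 1446, and the lowest with a transcript were Rps27 at 9.24 and Rpl5 at 20.0. This order leaves out the copies and can change with them. Copies held a mean of 1764.5 CPM beside 40.9 CPM for Rpl5, and 1427 CPM beside 54.6 CPM for Rpl23a.

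The share of all reads that fell on the 84 genes was lower than in the parental culture of the line in 9 of 11 derivatives. In line 2883 the share was 1.90% in the cytarabine, 2.47% in the vincristine, 2.66% in the etoposide, 1.72% in the prednisone and 3.03% in the methotrexate derivative, against 2.56% in the parental culture. In line 2696 it was 2.16% in the vincristine and 2.72% in the etoposide derivative, against 3.19% in the parental culture. In line 2869 it was 2.75% in the cytarabine and 2.63% in the vincristine derivative, against 3.38% in the parental culture. Line 7298 had 2.62% in the cytarabine derivative against 3.16% in the parental culture, and line 2641 had 3.11% in the prednisone derivative against 3.42% in the parental culture. The etoposide and methotrexate derivatives of line 2883 were the exceptions, at 1.04 and 1.19 times their parental share. The median ratio over the 11 derivatives was 0.831. It was 0.819 with near-identical copies counted too, and the 2 exceptions then had ratios of 1.06 and 1.18. The share is a part of each library's total. Less RNA from these genes per cell, more RNA from other genes and fewer cells that express these genes strongly therefore cannot be told apart.

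**Figure D1:**
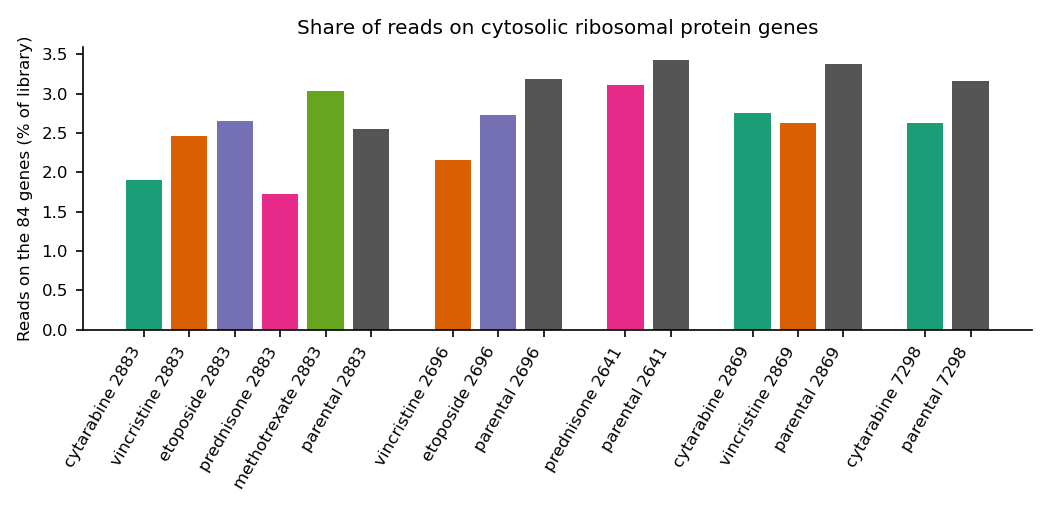
Percent of each library's reads on the 84 ribosomal protein genes, grouped by line, with the resistant derivatives to the left of the grey parental bar of the same line (1 library per bar). The bars run from 1.72% in the prednisone derivative of 2883 to 3.42% in the parental culture of 2641.

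Gene by gene, the members lay below parental together in some derivatives and close to it in others. The median log2 ratio to the parental library was -0.51 in the cytarabine derivative of 2883, -0.38 in that of 2869 and -0.29 in that of 7298. For vincristine it was -0.04 in 2883, -0.55 in 2696 and -0.48 in 2869. It was -0.02 and -0.23 in the etoposide derivatives of 2883 and 2696, -0.55 and -0.12 in the prednisone derivatives of 2883 and 2641, and 0.12 in the methotrexate derivative. The median of all 9309 genes lay between -0.12 and 0.04 in these 11 comparisons. In the cytarabine derivative of 2883 all 84 members were below their parental value, the closest to it being Rplp0, while in the methotrexate derivative 66 were above it. Of all genes tested, 49.2% were below their parental value in that cytarabine derivative and 60.2% in the methotrexate derivative. Large and small subunit genes had medians within 0.09 of each other in 10 derivatives. The vincristine derivative of 2869 was the exception, with -0.31 for the large and -0.57 for the small subunit.

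**Figure D2:**
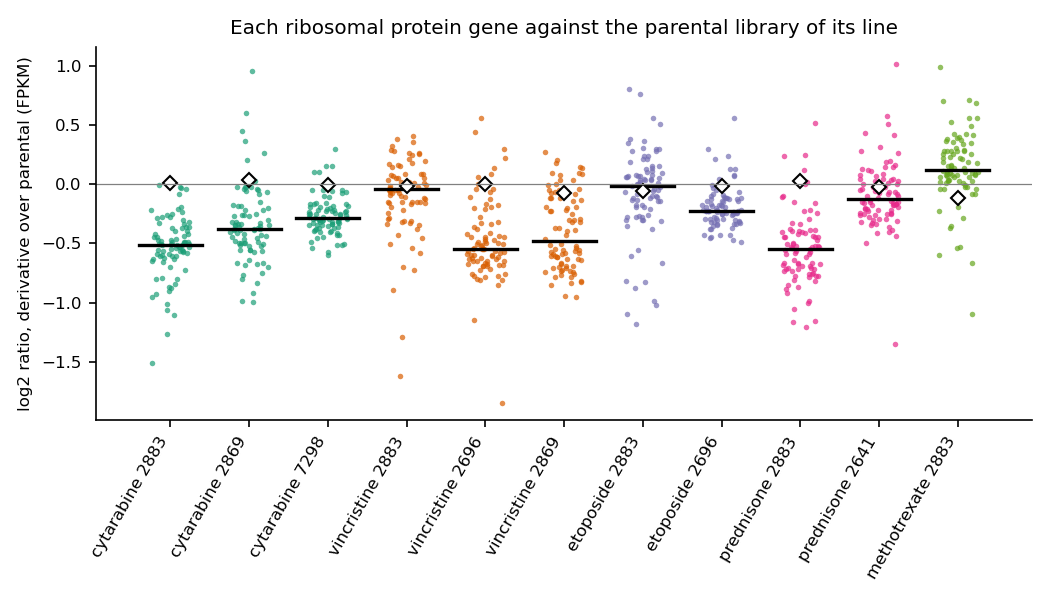
Log2 ratio of FPKM in each derivative over the parental library of its line, 1 point per ribosomal protein gene (84 per derivative). The black bar is the median of the 84 genes and the white diamond the median of all 9309 genes tested; the black bar lies lowest in the prednisone derivative of 2883 (-0.55) and highest in the methotrexate derivative (0.12).

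Across all 11 derivatives, 80 of the 83 tested members (96.4%) had an estimate below 0 with the cell line as a block, against 51.0% of all genes, and the median was -0.26, against a median of 0.00 over all genes. No member passed an adjusted p of 0.05 (limma on log2(FPKM + 1), Benjamini-Hochberg over all genes; smallest adjusted p of a member 0.442), and no gene of the whole table did (0%). At an unadjusted p under 0.05, 23 members (27.7%) were lower, against 5.94% of all genes, and 0 were higher, against 3.80% of all genes. That count was 6 without the parental library of 2696, 7 without that of 2869, 14 without the vincristine derivative of 2696 and 42 without the methotrexate derivative.

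The smallest p-values in this comparison were those of Rpl7, Rpl27a and Rpl36a, all proteins of the large subunit. Rpl7 had 518 to 1075 CPM, median 770, in the resistant derivatives and 958 to 1408 CPM, median 1132, in the parental cultures, a difference of -0.45 ± 0.14 (SE) with an adjusted p of 0.442 (limma). It was below its own parental value in 10 of 11 derivatives, the methotrexate derivative being the exception. Rpl27a had 66.3 to 122 CPM, median 103, in the resistant derivatives and 119 to 155 CPM, median 130, in the parental cultures (difference -0.38 ± 0.13, SE). Rpl36a, whose start is printed above, had 20.3 to 42.7 CPM, median 26.9, in the resistant derivatives and 28.8 to 44.7 CPM, median 39.3, in the parental cultures (difference -0.34 ± 0.12, SE). It was the 1 member below its parental value in all 11 derivatives (1.20% of those tested, against 1.83% of all genes), and 0 were above it in all 11 (0%, against 0.730%). With near-identical rows added, Rpl36a in the etoposide derivative of 2883 was at 1.00 times its parental level and no longer below it. The ranges of all 3 genes overlap between the groups.

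Rps12, a small-subunit protein, stood apart by direction. It was above its parental value in 9 of 11 derivatives, with 31.7 to 117 CPM, median 46.1, in the resistant derivatives and 31.7 to 60.6 CPM, median 33.1, in the parental cultures, a difference of 0.31 ± 0.18 (SE; adjusted p 0.560, limma). Rows near-identical to Rps12 hold 91.9% of the reads of this family, and with them added the difference was -0.16. The other members with an estimate above 0 were Rps19bp1 at 0.06 ± 0.12 and Rps13, a small-subunit protein, at 0.05 ± 0.14 (SE), and Rps13 was -0.14 with near-identical rows added.

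Cytarabine is a cytidine analogue that stalls DNA synthesis. In the 3 cytarabine derivatives, 71 of 83 members (85.5%) were below the parental library of their line in every one, against 15.0% of all genes, and 0 were above it in every one, against 16.6%. The median member difference was -0.33, against 0.02 over all genes, and it was -0.27 without the derivative of 2883. No member passed the adjusted threshold and no gene of the table did (0%), while 32 members (38.6%) were lower at an unadjusted p under 0.05, against 5.22% of all genes, and 0 were higher, against 5.92%. The count of 32 was 6 without the derivative of 2883, 20 without that of 2869, 18, 20 and 16 without the parental libraries of 2883, 2696 and 2869, and 21 without the line block.

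Rpsa, the laminin receptor precursor and a protein of the small subunit, had 580, 649 and 998 CPM in the cytarabine derivatives of 2883, 2869 and 7298, against 847, 1287 and 1255 CPM in their parental cultures. All 3 derivatives were below their own parental culture, by -0.67 ± 0.18 (SE; adjusted p 0.404, limma). Rpl26, a large-subunit protein that also binds p53 mRNA, had 163, 191 and 111 CPM in the derivatives of 2883, 2869 and 7298, against 239, 361 and 145 CPM in the parental cultures (difference -0.57 ± 0.15, SE). Rps27, a zinc-finger protein of the small subunit, had the smallest p of the members (difference -0.48 ± 0.11, SE), on only 1.9, 2.7 and 2.3 CPM in the derivatives and 3.7, 3.6 and 3.4 CPM in the parental cultures of 2883, 2869 and 7298. Its row holds few reads beside that of Rps27rt, an intronless member at least 95% identical in coding sequence. Rps27rt had 292, 382 and 373 CPM in the derivatives, against 412, 538 and 495 CPM in the parental cultures of these lines, so both rows were lower in all 3 derivatives.

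Vincristine blocks the assembly of microtubules. In its 3 derivatives 39 of 83 members (47.0%) were lower in every one, against 19.5% of all genes, and 1 was higher in every one (1.20%, against 14.8%). The median difference was -0.26, against -0.02 over all genes, and it was -0.43 without the derivative of 2883, in which the median ratio was close to 0. No member passed the adjusted threshold and no gene of the table did (0%). At an unadjusted p under 0.05, 15 members (18.1%) were lower, against 7.91% of all genes, and 0 were higher, against 5.94%. Left-out libraries moved that count to 42 (without the vincristine derivative of 2883), 7 (without that of 2696), 5 (without that of 2869), 8 (without parental 2696) or 23 (without either prednisone derivative or parental 2641).

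Rps7, a small-subunit protein that also binds Mdm2, was among the members with the smallest p-values of the vincristine comparison, at -0.81 ± 0.17 (SE; adjusted p 0.151, limma), with 66.3, 125 and 119 CPM in the derivatives of 2883, 2696 and 2869, against 162, 182 and 192 CPM in the parental cultures. The groups did not overlap, but the share of all genes with such a separation was not counted. Rps7 was among the members chosen by smallest p in this same comparison, so the separation is not independent support. With near-identical rows added the difference was -0.78. Rpl36a was also among them, at -0.56 ± 0.15 (SE).

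Etoposide poisons topoisomerase II. Its 2 derivatives had the member median closest to that of all genes, -0.07 against -0.03. The sign of the member median depended on the processing: it was 0.028 after quantile normalization and 0.065 without parental 2696, and it was -0.23 without the line block. Of the members, 37 (44.6%) were lower in both derivatives, against 30.2% of all genes, and 3 (3.61%) were higher in both, against 24.1%. No member passed the adjusted threshold and no gene of the table did (0%), and 2 members (2.41%), Rps7 and Rps27l, were lower at an unadjusted p under 0.05, against 5.30% of all genes, and 0 were higher, against 3.59%; the count was 0 without the derivative or the parental library of 2883. Rps7 had 75.7 and 165 CPM in the derivatives of 2883 and 2696, against 162 and 182 CPM in the parental cultures (difference -0.57 ± 0.20, SE). Rps27l, a paralogue of Rps27 that p53 induces and that has no copy row, had 42.3 and 48.0 CPM in the derivatives, against 83.9 and 65.5 CPM in the parental cultures (difference -0.52 ± 0.19, SE; adjusted p 0.532, limma).

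Prednisone acts through the glucocorticoid receptor. In its 2 derivatives 53 of 83 members (63.9%) were lower in both, against 27.0% of all genes, and 4 (4.82%) were higher in both, against 26.5%. The median difference was -0.39, against 0.00 over all genes, and it rested on line 2883: without that derivative it was -0.11, and without the derivative of 2641 it was -0.56. No member passed the adjusted threshold, against 2 genes of the table (0.0215%), while 29 members (34.9%) were lower at an unadjusted p under 0.05, against 4.74% of all genes, and 0 were higher, against 4.43%. That count was 1 without the derivative of 2883, 19 without either etoposide derivative, 18 without the parental library of 2883, 2696 or 2869, and 11 without the line block. Rpl7 had 518 and 1075 CPM in the derivatives of 2883 and 2641, against 958 and 1408 CPM in the parental cultures (difference -0.71 ± 0.18, SE). Rpl15, a large-subunit protein, had 193 and 347 CPM in the derivatives, against 338 and 427 CPM in the parental cultures (difference -0.56 ± 0.17, SE). Rpl24, a protein of the large subunit, had an estimate above 0, 0.19 ± 0.13 (SE; 0.08 ± 0.20 with near-identical rows added), with 34.3 and 48.9 CPM in the derivatives against 28.9 and 42.9 CPM in the parental cultures.

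Methotrexate, an antifolate, had 1 derivative, so its values have no replicate check and no test. Rpl17, of the large subunit, was highest, with 57.0 CPM in the derivative against 28.7 CPM in the parental culture. Rps27rt had 669 CPM in the derivative against 412 CPM in the parental culture, and Rps14, of the small subunit, had 1108 against 677 CPM. At the other end, Rpl38, of the large subunit, had 19.0 CPM in the derivative against 40.7 CPM in the parental culture, Rpl22l1 had 15.4 against 24.3 CPM and Rpl7l1 had 147 against 214 CPM. Rpl38 was the only tested member lower by at least 2-fold (1.20%, against 5.33% of all genes), and 0 members were higher by at least 2-fold, against 4.97%.

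The 4 drugs with more than 1 derivative and methotrexate were also compared with each other. At an unadjusted p under 0.05, 14 of 83 members (16.9%) differed between drugs, against 11.3% of all genes, and after adjustment 0 did, against 5 genes of the table (0.0537%; limma moderated F). A member's difference from parental was thus not called as depending on the drug in this design, which leaves 6 residual degrees of freedom.

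Rpl22 and its paralogue Rpl22l1 are described together because the level of one is known to depend on the other. Rpl22 had 116 CPM in the vincristine derivative and 335 CPM in the etoposide derivative of 2696, against 417 CPM in the parental culture, so the vincristine ratio was 0.278 (95% exact binomial interval 0.264 to 0.293, counting error only). In line 2641 it had 224 CPM in the prednisone derivative against 573 CPM in the parental culture, a ratio of 0.392 (0.377 to 0.407). In line 2883 it had 263 CPM in the cytarabine, 441 in the vincristine, 426 in the etoposide, 281 in the prednisone and 618 in the methotrexate derivative, against 481 CPM in the parental culture. In line 2869 it had 381 CPM in the cytarabine and 346 CPM in the vincristine derivative, against 536 CPM in the parental culture, and in line 7298 it had 355 CPM in the cytarabine derivative against 504 CPM in the parental culture. It was lower in 10 of 11 derivatives and higher in the methotrexate one, at -0.70 ± 0.26 over all resistant derivatives (SE; adjusted p 0.451, limma). The 83 other genes within 10 Mb of Rpl22 on chromosome 4 had a median log2 ratio within 0.06 of that of all genes in both the vincristine derivative of 2696 and the prednisone derivative of 2641.

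Rpl22l1 was highest in the derivatives in which Rpl22 was lowest. It had 64.6 CPM in the vincristine derivative of 2696 and 55.2 CPM in the etoposide derivative, against 47.7 CPM in the parental culture, and 70.8 CPM in the prednisone derivative of 2641 against 35.0 CPM in the parental culture. The ratios were 1.35 for vincristine in 2696 and 2.02 (95% interval 1.82 to 2.25) for prednisone in 2641. In line 2883 all 5 derivatives were lower, at 10.1 to 15.4 CPM against 24.3 CPM in the parental culture. In line 2869 it had 21.0 CPM in the cytarabine and 34.2 CPM in the vincristine derivative, against 33.3 CPM in the parental culture, and in line 7298 it had 39.1 CPM in the cytarabine derivative against 59.0 CPM in the parental culture. With the reads of its 1 copy row added, the ratios for vincristine in 2696 and prednisone in 2641 were 1.32 and 2.16. No resistant against parental difference of Rpl22l1 was called (-0.15 ± 0.21, SE; adjusted p 0.847, limma).

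**Figure D3:**
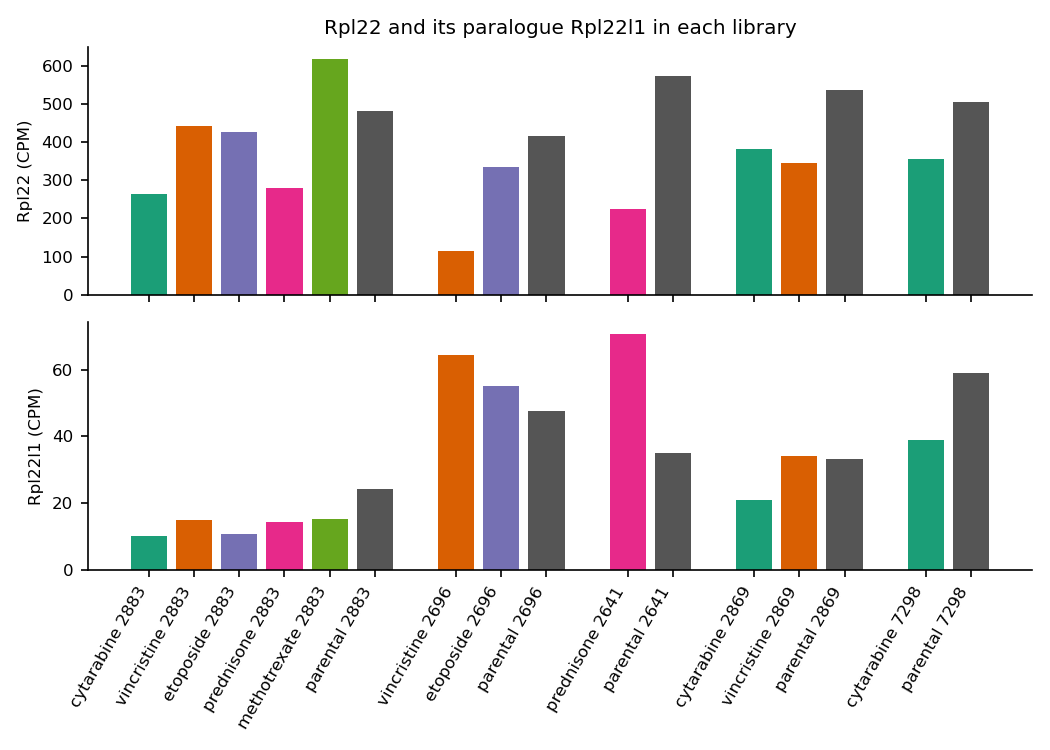
CPM of Rpl22 (upper panel) and Rpl22l1 (lower panel) in each library, grouped by line with the derivatives left of the grey parental bar (1 library per bar, separate scales). Rpl22 is lowest in the vincristine derivative of 2696 and the prednisone derivative of 2641, at 116 and 224 CPM, the libraries in which Rpl22l1 is highest, at 64.6 and 70.8 CPM.

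Of the proteins named above as binding Mdm2, Rpl11 and Rps7 were each below their parental value in 10 of 11 derivatives. In all, 24 members had this count, so it does not set Rpl11 and Rps7 apart from the family. Whether members that bind Mdm2 differ from the rest as a set was not tested. Rpl11 differed by -0.27 ± 0.09 (SE; adjusted p 0.451, limma), with 31.6 to 69.2 CPM, median 55.1, in the resistant derivatives and 40.1 to 79.9 CPM, median 75.8, in the parental cultures. Rps7 differed by -0.48 ± 0.19 (SE; adjusted p 0.472, limma). Rpl5 was variable: in line 2883 it had 28.5 CPM in the cytarabine, 19.4 in the vincristine, 53.7 in the etoposide, 45.2 in the prednisone and 39.3 in the methotrexate derivative, against 59.4 CPM in the parental culture. With its copy row added, the etoposide derivative of 2883 was at 1.76 times and the vincristine derivative at 0.519 times the parental level, so the order of these libraries changes with the copies. Rps19, the gene most often mutated in Diamond-Blackfan anaemia, differed by -0.25 ± 0.13 (SE; adjusted p 0.533, limma).

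The P stalk, which recruits elongation factors to the large subunit, had estimates nearer 0 than the median member. Rplp0 differed by -0.02 ± 0.17, Rplp1 by -0.15 ± 0.15 and Rplp2 by -0.03 ± 0.15 between resistant and parental cultures (SE; adjusted p 0.749 to 0.975, limma), and with near-identical rows added Rplp2 was at 0.00 ± 0.13. Rplp0 had 1273 to 2903 CPM, median 2054, in the resistant derivatives and 1660 to 2580 CPM, median 2320, in the parental cultures. Its highest library was the etoposide derivative of 2883, at 2903 CPM against 1660 CPM in the parental culture. The other P-stalk genes in that derivative were at 798 CPM for Rplp1 and 211 CPM for Rplp2, against 757 and 174 CPM in the parental culture.

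The remaining paralogues and sex-chromosome members were described with the same contrast. Rpl36al, the autosomal paralogue of Rpl36a, differed by -0.25 ± 0.14, against -0.34 ± 0.12 for Rpl36a. Rpl39 and Rps4x, both X-linked, differed by -0.37 ± 0.18 and -0.27 ± 0.16, Rpl10, also X-linked and mutated in human T-ALL, by -0.07 ± 0.18, and Rpl3 by -0.22 ± 0.14. The differences were -0.19 ± 0.15 for Rpl10 and -0.35 ± 0.14 for Rpl3 with near-identical rows added. Rps27l differed by -0.33 ± 0.15 and Rpl7l1, a protein of ribosome assembly, by -0.28 ± 0.12 (SE for all 7; adjusted p 0.489 to 0.913, limma). Rpl3l, Rpl10l, Rpl39l and Rps4l were not analysed here.

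Differences between the cell lines were called for 13 of 83 members (15.7%), against 23.5% of all genes (limma moderated F over the 5 lines, adjusted p under 0.05). These were Rps3a1, Rpl22l1, Rpl26, Rps26, Rps15, Rpl24, Rps27a, Rpl23a, Rpl34, Rpl11, Rpl5, Rpl21 and Rps12. Cultures of a line share 1 origin, so this is a statement on these cultures. The count was 5 without the prednisone derivative of 2641, 6 without parental 2641, 7 without the cytarabine derivative of 7298 or parental 2696, 2869 or 7298, and 8 without the etoposide derivative of 2696. With near-identical rows added it was 9, and 5 of the 13 were among those 9.

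Rps3a1, a small-subunit protein, was called as differing between lines on its own row but not with near-identical rows added. Whether the way reads were counted or line 7298 itself gives this pattern was not tested. Rps3a1 had 73.6 CPM in the cytarabine derivative and 93.3 CPM in the parental culture of 7298. In the 14 libraries with the Mcm2cre/cre genotype it had 456 to 1073 CPM (adjusted p 4.46e-06, limma). Its near-identical row Rps3a3 was the reverse, at 626 and 767 CPM in those cytarabine and parental libraries, against 6.31 to 22.2 CPM in the others. The sum of Rps3a1 and its 5 copy rows was 1946 and 2473 CPM in the cytarabine and parental libraries of 7298, against 1015 to 2426 CPM in the others, and the difference between lines was then not called (adjusted p 0.230, limma). For Rps7, the copy row held 5.45% of the reads of the pair in the library where this was lowest and 53.2% where it was highest. Unlike for Rps3a1, the sum was also low in line 7298. It was 116 CPM in the cytarabine derivative and 150 CPM in the parental culture. The sum was 305 to 460 CPM in the other parental cultures and 142 to 354 CPM in the other derivatives.

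**Figure D4:**
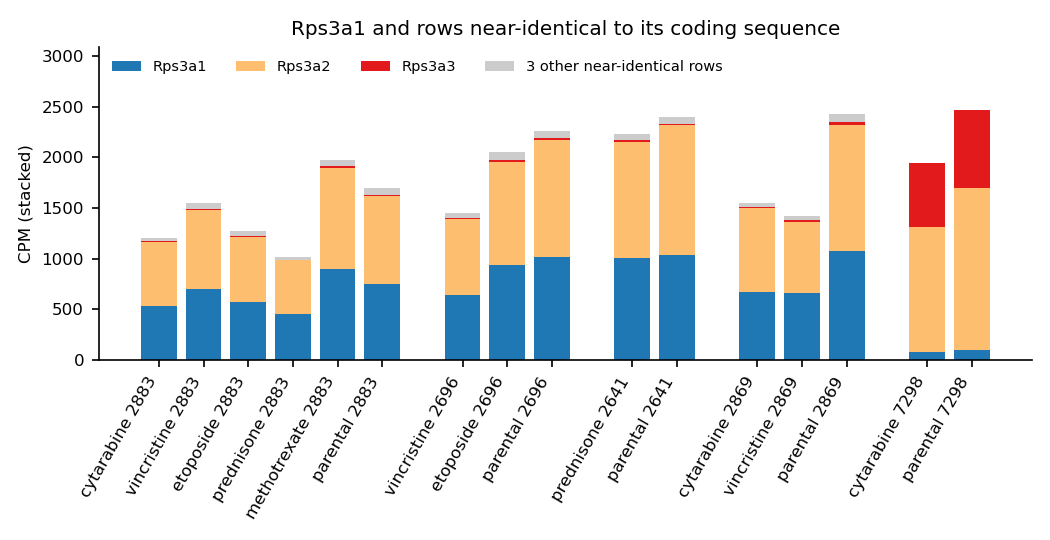
Stacked CPM of Rps3a1 and the 5 table rows near-identical to its coding sequence in each library, grouped by line with derivatives left of the parental culture. In both libraries of 7298 the blue part (Rps3a1) is small, at 73.6 and 93.3 CPM, and the red part (Rps3a3) large, at 626 and 767 CPM, while the full height is within the range of the other lines or just above it.

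Rpl22l1 differed between lines without and with its copy row (adjusted p 0.00175 and 0.00152, limma): it had 10.1 to 24.3 CPM in the 6 libraries of 2883 and 21.0 to 70.8 CPM in the 10 other libraries. Rps26 and Rpl41 lie near each other on chromosome 10 and were, with Rps3a1, Rpl22l1 and Rpl22, the 5 members with the largest spread over the 16 libraries (SD 0.59 to 1.13 on the log2 scale). Rps26 had 113 to 393 CPM, median 251, in the resistant derivatives and 137 to 529 CPM, median 374, in the parental cultures. The steadiest of the 83 tested members were Rpl28, Rps19bp1 and Rplp2, with SDs of 0.21, 0.22 and 0.23.

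In some derivatives, members that departed from the common shift lay on chromosomes whose other genes departed too. This did not hold throughout: the 1 member on chromosome 13 was 0.29 and 0.40 above the median of the 84 in the cytarabine and prednisone derivatives of 2883, where the other genes of that chromosome were at -0.41 and -0.39 relative to all genes, and in the methotrexate derivative the 5 members on chromosome 15 were at -0.04 beside 0.30 for its other genes. In the vincristine derivative of 2869, the 5 members on chromosome 5, the 7 on chromosome 11 and the 5 on chromosome 15 were all above the median of the 84, as were 7 of 8 on chromosome 9. Their medians lay 0.43, 0.42, 0.48 and 0.54 above it on the log2 scale for chromosomes 5, 11, 15 and 9. The other genes on these chromosomes lay 0.40, 0.42, 0.39 and 0.40 above the median of all genes. The exception on chromosome 9 was the intronless Rps27rt, 0.30 below the median of the 84. In the vincristine derivative of 2696, all 7 members on chromosome 11, Rps27a, Rpl26, Rpl23a, Rpl23, Rpl19, Rpl27 and Rpl38, were above the median of the 84, by 0.51 in the median, and the other 754 genes of that chromosome were above theirs by 0.53. Chromosome 16, with Rpl24 and Rpl35a, was higher in the same way in that derivative (0.45 for the members, 0.41 for other genes) and in the etoposide derivative of 2696 (0.35 and 0.41).

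Some single members far from the rest had neighbours that departed in the same direction. In the vincristine derivative of 2883, Rpl13 was 0.85 below the median of the 84, and other genes within 10 Mb of it were 0.66 below the median of all genes. In the etoposide derivative of 2883, Rplp0 and Rpl6 on chromosome 5 were 0.82 and 0.78 above the median of the 84, with neighbours at 0.72 and 0.71 above that of all genes. Rpl41 and Rps26 were 1.00 and 0.86 below it there, with neighbours 0.62 below. In the methotrexate derivative, Rpl38 was 1.22 below with neighbours 0.64 below, and Rpl17 and Rps14 on chromosome 18 were 0.87 and 0.59 above with neighbours 0.52 and 0.64 above. Across the 84 members, Pearson's r between a member's departure and that of its neighbours was 0.68 in the vincristine derivative of 2869, 0.46 in that of 2696 and 0.45 in the methotrexate derivative, and lay between -0.04 and 0.38 in the other 8. Spearman's rho, which uses ranks, was lower, at 0.62, 0.30 and 0.25 in the same order, and lay between 0.03 and 0.22 in the other 8. Members on the same chromosome share neighbours and each point pair shares its libraries, so these values are descriptions. Chromosome copy number was not measured in these data, and its part in these patterns was not tested. Rps7 in the vincristine derivative of 2883 (1.24 below, neighbours 0.41 below) and Rpl22 in that of 2696 (1.30 below, neighbours 0.06 above) went beyond or against their surroundings.

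**Figure D5:**
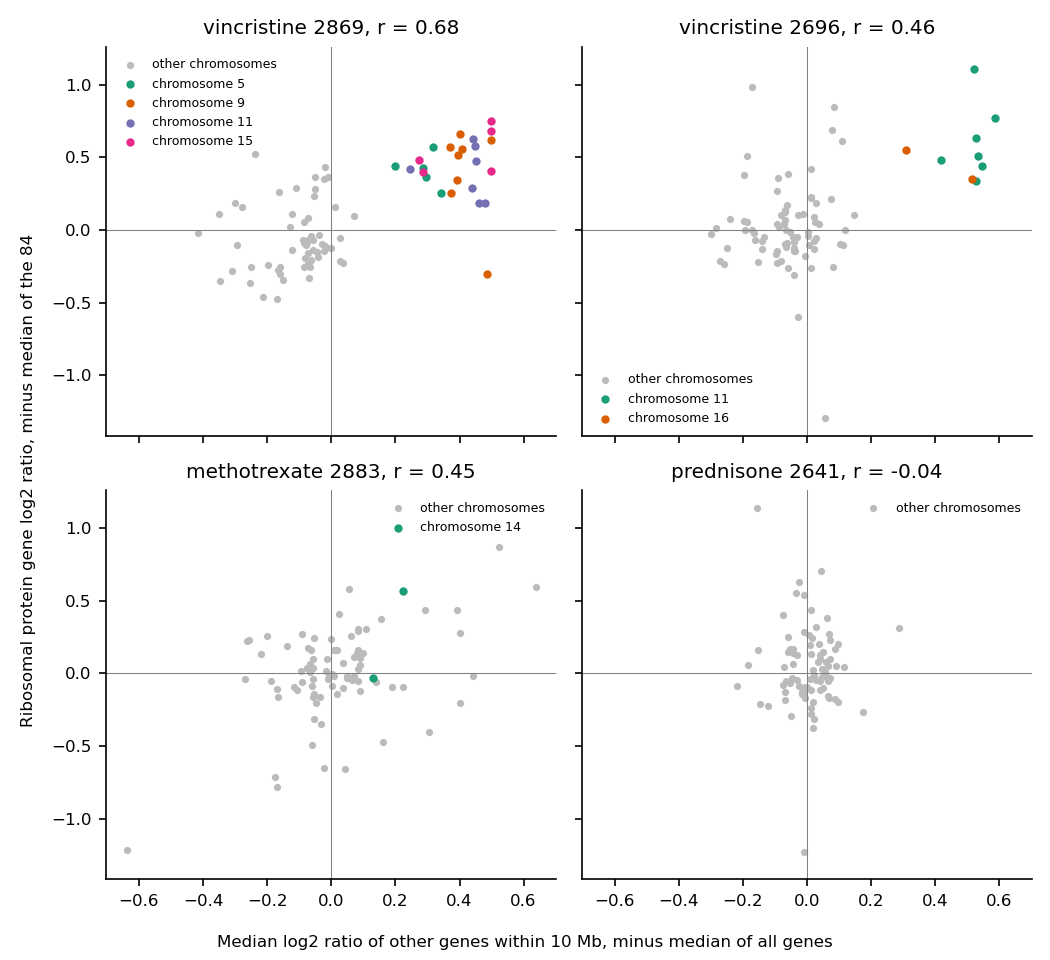
Departure of each ribosomal protein gene from the median of the 84 (vertical, log2) against the median departure of other genes within 10 Mb (horizontal, log2) in 4 derivatives, with chromosomes in colour where the other genes lie more than 0.3 above the median of all genes. Points lie along the diagonal in the vincristine derivative of 2869 (r = 0.68) and around 0 in the prednisone derivative of 2641 (r = -0.04).

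Other genes of translation had medians nearer 0 than the ribosomal protein genes in the comparison over all 11 derivatives. Over all genes tested, 51.0% had an estimate below 0, and at an unadjusted p under 0.05 5.94% were lower and 3.80% higher. Of 24 translation factors and other genes with TOP mRNAs, 18 had an estimate below 0 between resistant and parental cultures, with a median of -0.14, and 7 were lower and 0 higher at an unadjusted p under 0.05. Of 68 tested ribosome biogenesis genes, 38 had an estimate below 0, with a median of -0.04; 2 were lower and 1 higher at that p. Of 72 tested mitochondrial ribosomal protein genes, 46 were below 0, with a median of -0.06, and 8 were lower and 0 higher. Of 13 tested genes of mTORC1 and its control of TOP mRNAs, 4 were below 0, with a median of 0.02, and 0 were lower and 2 higher. The median over all genes in that fit was 0.00, and no gene of these lists passed the adjusted threshold. In the prednisone comparison the biogenesis genes had a median of 0.14 with 20 of 68 estimates below 0, beside -0.39 for the ribosomal protein genes and 0.00 over all genes. The mitochondrial ribosomal protein genes were at -0.01 there, with 37 of 72 below 0. In the etoposide comparison the biogenesis genes had a median of -0.17, with 58 of 68 below 0. The translation factors and other TOP genes were at -0.17 and the mitochondrial ribosomal protein genes at -0.16, the latter with 54 of 72 below 0. Beside these stood -0.07 for the cytosolic ribosomal protein genes and -0.03 over all genes. The share of all genes below 0 was not counted for single drugs.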

How the data were processed

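One library per culture was made with a stranded mRNA kit, per the labels. The authors deposited FPKM values per gene; cutadapt, STAR, Partek and the mm10 build are listed in the submitters' processing notes. How reads were counted, and with which annotation or strand setting, is not given in the sources used. Gene length in the deposited FPKM is the span with introns, and 0.1 read per gene was added. CPM is FPKM times that length, and reads come from depths recovered from the steps between low values. Ratios of single libraries carry 95% exact (Clopper-Pearson) intervals, which cover counting error alone.

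The test was limma's (version 3.58.1, R 4.3.3, trend) on log2(FPKM + 1), a scale that understates changes of low genes. It ran over the 9309 genes that reached 1 FPKM in 2 or more libraries. All 16 libraries and a term per line (the replicate block) entered each fit, with 10 residual degrees of freedom for the resistance fit and 6 for the drug fit; p-values were two-sided and Benjamini-Hochberg adjusted over all genes. Pairing by line comes from the labels; across genes, each of the 11 derivatives had its highest correlation with the parental culture of its line (r from 0.94 to 0.98). Copies were found with blastn 2.17.0 (identity at least 95%, coverage at least 70%). Opposite-strand genes overlap several members, so their reads could be shared. The code was tested on simulated data. Members, lists and named genes were chosen with earlier results of these data known; named are the 3 members per direction with the smallest p in each comparison, called members, a fixed set of paralogues and special members, the 5 most and 3 least variable, and the 3 largest methotrexate differences each way; any other member was picked with its values in view. Some named members are not reported here.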

Additional observations from a re-analysis of the deposited data

Results flagged for a closer look

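Of 44 values examined over the 5 parental cultures (43 named members and the share of reads on all members), 4 had a library far from the other 4 by Dixon's criterion; chance flags about 1 in 20 such groups. In the parental culture of 2641, Rpl19 stood at 65.5 FPKM against 44.8 to 49.3 FPKM in the other parental cultures, Rpl38 at 17.96 against 10.6 to 12.6 FPKM, and Rps27a at 97.3 against 50.03 to 61.4 FPKM; all 3 lie on chromosome 11. In the parental culture of 2696, Rps27l stood at 19.1 FPKM against 24.5 to 26.3 FPKM in the others.

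Among the named members and the 4 drugs with more than 1 derivative, 7 cases of opposite direction were found. In these, every derivative of 1 drug lay on the opposite side of its parental library from every derivative of another. The share of all genes with such a pattern was not counted, so the number of cases is not a result about these members. These differences were not tested singly, and none of the members was called as differing between drugs. Rpl21 was at -0.52 (median log2 ratio) for cytarabine and 0.24 for etoposide, and at 0.24 for etoposide beside -0.59 to -0.17 for prednisone. Rpl19 was at -0.35 for cytarabine and 0.00 to 0.15 for vincristine, and at 0.085 for vincristine beside -0.72 to -0.07 for prednisone. Rpl24 was at -0.27 for cytarabine and 0.19 to 0.25 for prednisone. Rpl10 was at -0.43 for vincristine and -0.36 for etoposide, beside 0.02 to 0.28 for prednisone. With near-identical rows added, the cases of Rpl24 and Rpl10 no longer held: the prednisone derivative of 2883 was then at 0.993 times parental for Rpl24 and 0.774 times for Rpl10, and the etoposide derivative of 2883 at 1.06 times for Rpl10. Rpl10a, chosen after its values were seen, was at -0.40 to -0.16 for vincristine and 0.12 to 0.31 for prednisone. It was at 0.783 and 0.846 times parental in the prednisone derivatives of 2883 and 2641 once near-identical rows were added.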

How the results depend on the processing

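No member was called between resistant and parental cultures, for any drug or between drugs under any of the alternatives run (the fit with no replicate block, quantile normalization, scaling by median of ratios, CPM in place of FPKM, 0.1 as pseudocount, all genes kept, reads of pseudogene-named or near-identical rows added, each library left out). The median member difference kept its sign under all of them for the resistant, cytarabine, vincristine and prednisone comparisons. For etoposide, -0.07 as reported, it was -0.23 with no replicate block, 0.028 after quantile normalization, and -0.12 to 0.065 as single libraries were left out (0.065 without parental 2696). Quantile normalization lowered the count of members below parental at an unadjusted p under 0.05 to 8 for all resistant and 17 for cytarabine derivatives, against 23 and 32 as reported. With no replicate block that count was 21 for cytarabine, 1 for etoposide and 11 for prednisone, against 32, 2 and 29. The cell-line count of 13 ran from 5 to 18 as libraries were left out. Single members changed sign as follows: Rps12 with pseudogene-named or near-identical rows added (-0.11 and -0.16 resistant, -0.14 and -0.19 cytarabine, -0.20 and -0.26 prednisone) and, for cytarabine, with libraries left out (-0.00844 to 0.70); Rps13 with such rows added (-0.14 resistant, -0.15 cytarabine), with no replicate block (-0.00583, resistant) and with libraries left out (-0.020 to 0.12 resistant, -0.10 to 0.33 cytarabine); Rps19bp1 with libraries left out (-0.023 to 0.16); and, with no replicate block, Rpl19 (-0.016) and Rpl38 (-0.10) for vincristine. The cause was not tested. With near-identical rows added, 8 members lost their cell-line call: Rps3a1, Rpl26, Rpl23a, Rpl34, Rpl11, Rpl5, Rpl21 and Rps12 (adjusted p from 0.0574 for Rpl26 to 0.662 for Rpl34, limma). Low rows such as Rps27 rest on few reads.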
